A study of Mus musculus with 2 samples.

Results

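Genes for translation initiation factors and for ribosomal proteins were examined in 2 lists of chromatin sites that an antibody against Rac1, a small GTPase, marked in mouse retina. The genes were chosen by name, from symbols that begin with Eif, Rpl, Rps, Mrpl or Mrps. Pseudogene names and the Rps6k kinases were left out. The choice was made with earlier results of these data known. Of 4789 peaks in both lists together, 43 were assigned to such a gene, and these named 37 different genes out of 223 protein-coding genes with a matching symbol. The control list held 32 of its 3078 peaks at these genes and the list from hypertensive retina 11 of 1711. By CUT&Tag, a transposase led to the chromatin by the antibody cuts and tags the DNA around it. The name pattern also takes in relatives such as the eIF2 kinases and the eIF4E-binding proteins. By name it takes in Rps19bp1 and Rps23rg1 too, counted here with the cytosolic ribosomal proteins. Of the 223 genes, 186 had a peak in neither list. Both libraries came from wild type C57BL/6 mice aged 7 weeks. The control retina had no treatment, and the other came from eyes with chronic ocular hypertension (COH), used to model glaucoma, at 1 week. The study sought genes and transcription factors linked to Rac1 in this model. There was 1 library per condition, so no value below was tested between conditions, and the labels do not say how many animals each library pooled.

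Translation starts when initiation factors bring the initiator tRNA and the small ribosomal subunit to the capped end of an mRNA and scan for a start codon. The cytosolic ribosome then reads mRNAs made in the nucleus, and a separate mitochondrial ribosome, whose proteins are also encoded in the nucleus, reads the few mRNAs of the mitochondrial genome. Retinal neurons are known for a high demand for protein synthesis and mitochondrial respiration, and the eIF2 and eIF4E branches of initiation are regulated in injured neurons.

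Each peak carries a pileup, the authors' count of overlapping fragments, and a fold enrichment over the peak caller's background. Read numbers are unknown, no library with a control antibody was analysed here, and the absence of a peak does not show the absence of binding. In nuclei from whole retina, fewer marked cells and less signal per cell cannot be told apart. The median fold of all peaks was 5.24 in control and 5.45 in COH. Of 8 rod markers none had a peak in either list (0 of 8), of 6 ganglion cell markers Nefm had one in control, and of 4 Müller glia markers Glul had one in control and Aqp4 one in COH, which lay -78433 bp from the transcription start of Aqp4, inside another gene. Over all protein-coding genes 10.8% had a peak in control and 5.38% in COH, so these small counts do not tell the tissue apart from any other.

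Initiation factor genes carried peaks more often than ribosomal protein genes did in these lists. In control retina 13 of 56 initiation factor genes had a peak, a share of 23.2% (exact 95% binomial interval 13.0 to 36.4). Mitochondrial ribosomal protein genes followed with 12 of 78 (15.4%, 8.21 to 25.3), and cytosolic ones had 7 of 89 (7.87%, 3.22 to 15.5). Of all 21900 protein-coding genes, 10.8% carried a peak in control. That share lay below the interval of the initiation factors and inside the intervals of both ribosomal groups. As the genes were chosen with earlier results known, this is a description and no test. The intervals of the 3 groups overlapped each other, and they cover counting error over genes only.

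In COH retina fewer genes of each group had a peak. Initiation factors had 7 of 56 genes with a peak (12.5%, 5.18 to 24.1), cytosolic ribosomal proteins 3 of 89 (3.37%, 0.701 to 9.54) and mitochondrial ones 1 of 78 (1.28%, 0.0325 to 6.94). Of all protein-coding genes 5.38% carried a peak in COH, a value inside each of these intervals. The COH count was 0.538 of the control count for initiation factors and 0.429 for cytosolic ribosomal proteins, beside 0.499 for all protein-coding genes. For mitochondrial ribosomal proteins it was 0.0833, the lowest of the 3 groups. With peaks at divergent neighbours counted, described below, COH had 3 of 78 mitochondrial and 3 of 89 cytosolic genes, so the order of these groups is not settled. The ratios also depend on the longer control list. That list was also cut to its 1711 peaks of highest fold. Control and COH then had 7 and 7 initiation factor, 4 and 3 cytosolic and 6 and 1 mitochondrial genes. The share of all protein-coding genes in the cut list was not computed, so these counts cannot be set against it. The background counts all protein-coding genes, whether or not the retina expresses them.

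**Figure D1:**
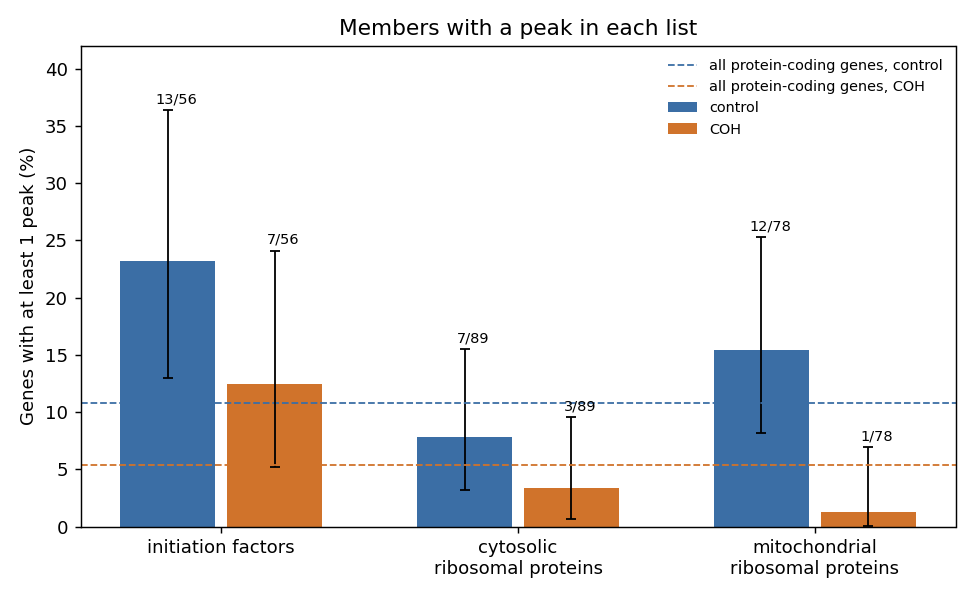
Bars show the percentage of genes in each group with at least 1 peak, in control and COH, with exact 95% binomial intervals as error bars and the counts above them. Dashed lines mark the share among all protein-coding genes, 10.8% in control and 5.38% in COH. Only the control interval of the initiation factors lies wholly above its line, a description and no test.

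Almost all of these peaks sat at gene starts. Of the 32 control peaks 29 (90.6%, 75.0 to 98.0) reached to within 1000 bp of an annotated transcription start site (TSS), and of the 11 COH peaks 11 did. Over the whole lists, which also hold peaks at pseudogene names, these shares were 61.6% and 51.1%. Protein-coding genes at large are the closer comparison. Of 2363 such genes with a control peak, 1833 had one within 1000 bp of a TSS, and of 1179 with a COH peak, 832 did. Counting genes with such a peak, 11 initiation factor, 7 cytosolic and 11 mitochondrial ribosomal protein genes remained in control, beside 8.37% of all protein-coding genes, and 7, 3 and 1 in COH, beside 3.8%. The exceptions in control were Eif4e and Eif4g1, inside their own genes, and Mrps23, whose peak lay 26958 bp from its TSS in distal intergenic sequence. The summits of the near peaks ranged from -1283 to 670 bp of the TSS in control (median 38, negative values upstream) and from -155 to 506 bp in COH (median 91). The outermost upstream summit, at Mrpl14, belongs to a peak whose edge lay at -961 bp.

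**Figure D2:**
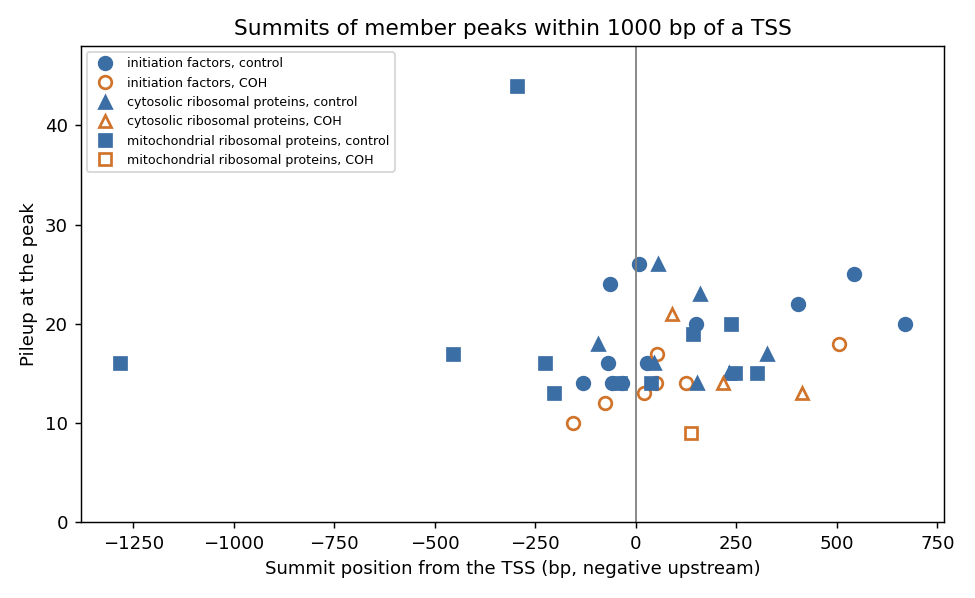
Each point is a member peak within 1000 bp of a TSS, placed by the distance of its summit from the TSS (horizontal, bp) and its pileup (vertical), with filled marks for control and open marks for COH. Most summits lie close to the start on either side, and the Mrps18b peak, at -295 bp with a pileup of 44, stands above the rest.

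The peaks were of ordinary strength for these lists. The median fold of control peaks was 5.10 for initiation factors, 5.27 for cytosolic and 4.96 for mitochondrial ribosomal proteins, beside 5.18 for all control peaks near a TSS. In COH the medians were 4.95 for 7 initiation factor peaks and 5.52 for 3 cytosolic ribosomal protein peaks, beside 5.33 for all COH peaks near a TSS, and the single mitochondrial one had 4.6. In control, 13 of the 32 peaks lay above the median fold of the list, and in COH 5 of 11.

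**Figure D3:**
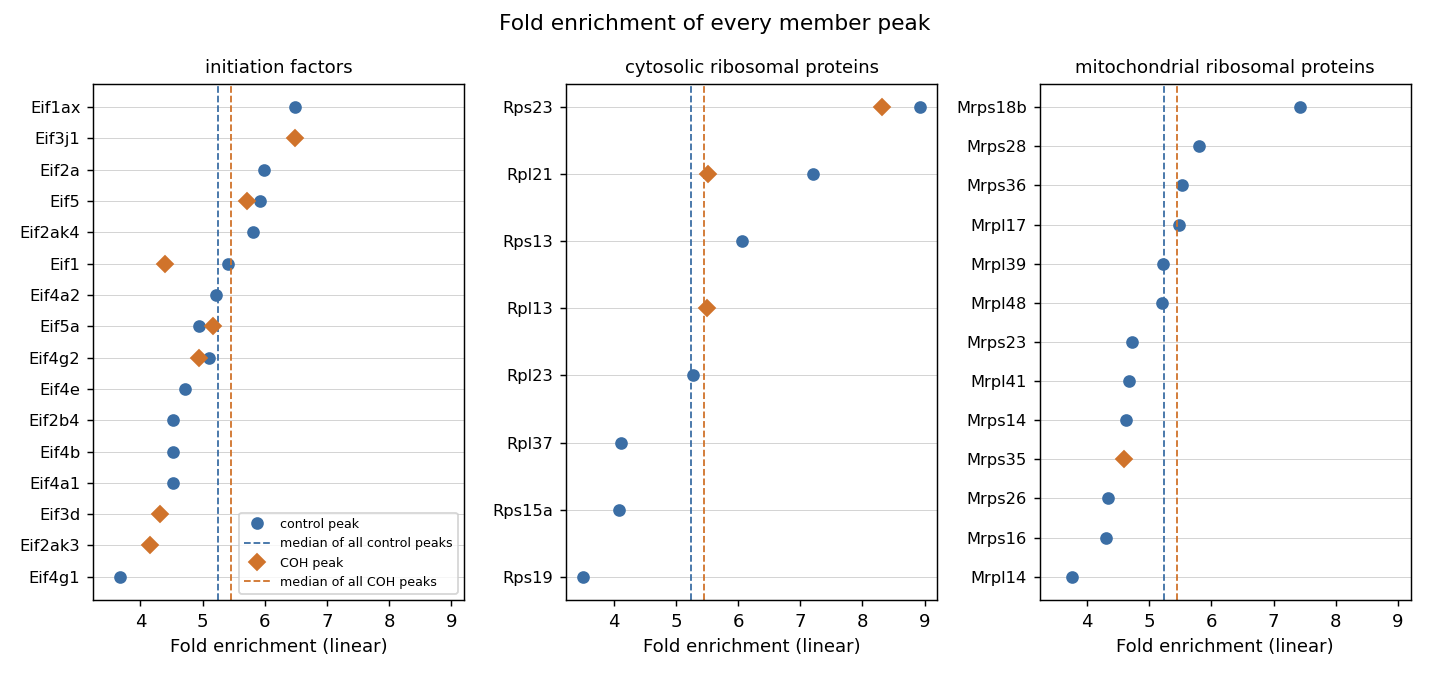
Each point gives the authors' fold enrichment (horizontal, linear) of 1 peak at the gene named on the vertical axis, with circles for control and diamonds for COH, in a panel per gene group. Dashed lines mark the median of all peaks, 5.24 in control and 5.45 in COH; Rps23 has the highest fold in both lists, and in the mitochondrial panel Mrps35 holds the sole COH point.

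Promoter stretches are shown for members whose peaks near a TSS overlapped between the lists and for the strongest member of each group. They run from 200 bases before the annotated start to 20 bases from it, 5' to 3' on the gene's strand, and come from RefSeq on GRCm38.p6. They are not the sequences under the peaks, which were not read. Summits of Mrps18b (-295 bp), Rps23 (55 and 91 bp) and Eif1 in COH (124 bp) lay outside this range. Those of Eif1 in control (8 bp) and Eif1ax (-132 bp) lay inside, and that of Eif3j1 (20 bp) at its edge. Capitals mark matches on either strand to the motifs searched. The Rps23 stretch is chr13:90922922-90923141 on the plus strand, that of Eif1 chr11:100319749-100319968 on the plus strand and that of Mrps18b chr17:35916421-35916640 on the minus strand. The Eif1ax stretch is chrX:159371978-159372197 and that of Eif3j1, the strongest initiation factor in COH, chr2:122028380-122028599, both on the plus strand. These positions are on another set of coordinates than the peaks. Eif5a has 6 such windows, of which none was singled out, and Eif4g2 and Rpl21 are named only.
Rps23: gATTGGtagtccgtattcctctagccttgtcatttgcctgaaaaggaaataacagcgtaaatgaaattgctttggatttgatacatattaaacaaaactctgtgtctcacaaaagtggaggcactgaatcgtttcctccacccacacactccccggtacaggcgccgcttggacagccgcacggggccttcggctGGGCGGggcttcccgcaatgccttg
Eif1: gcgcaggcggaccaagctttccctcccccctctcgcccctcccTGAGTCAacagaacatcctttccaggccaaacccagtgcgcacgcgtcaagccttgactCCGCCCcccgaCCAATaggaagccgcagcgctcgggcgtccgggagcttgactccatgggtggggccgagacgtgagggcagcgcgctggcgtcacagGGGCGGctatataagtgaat
Mrps18b: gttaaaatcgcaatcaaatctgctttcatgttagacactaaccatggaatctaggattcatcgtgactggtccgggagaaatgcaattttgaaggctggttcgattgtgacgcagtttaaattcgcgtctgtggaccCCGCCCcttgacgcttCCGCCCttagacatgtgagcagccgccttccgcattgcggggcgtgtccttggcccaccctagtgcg
Eif1ax: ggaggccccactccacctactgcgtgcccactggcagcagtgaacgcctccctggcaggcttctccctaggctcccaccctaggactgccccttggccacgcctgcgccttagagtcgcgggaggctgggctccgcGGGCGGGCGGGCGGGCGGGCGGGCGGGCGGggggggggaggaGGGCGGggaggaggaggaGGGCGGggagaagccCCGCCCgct
Eif3j1: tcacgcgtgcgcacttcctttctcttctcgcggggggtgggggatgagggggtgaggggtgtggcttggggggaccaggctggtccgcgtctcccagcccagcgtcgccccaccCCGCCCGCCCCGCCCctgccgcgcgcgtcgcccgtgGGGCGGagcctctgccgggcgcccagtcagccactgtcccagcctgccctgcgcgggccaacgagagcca

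GC boxes, the GGGCGG element bound by SP and KLF factors, were the match common to all 5 stretches. Eif1ax has a run of overlapping GC boxes between -64 and -35, counted with the start as 0, and Eif3j1 has 3 overlapping ones between -86 and -72. Mrps18b has 2, at -63 and -47, and Rps23 has 1 that ends at the start itself. Within the stretches, Eif1 alone of the 5 shows an AP-1 match (TGACTCA), at -157. Eif3j1 has one too in the longer window of 250 bases before to 50 after its start. CCAAT boxes are in Eif1 at -87 and in Rps23 at -199.

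Over whole windows of 250 bases before to 50 after a start, 30 members with a peak near a TSS and 152 other members had at least 1 window. A GC box was found in 34 of 42 windows of members with a peak near a TSS in either list (81.0%) and in 92 of 171 windows of the other members (53.8%). For all protein-coding genes the shares were 73.3% with such a peak and 46.2% over all windows, and it was 35.7% over all windows of any gene. The difference between marked and unmarked members was thus like that between marked genes and all genes. Base composition moved with it. The median GC content was 65.8% in windows of marked members, 58.3% in those of the other members, 65.3% in windows of all marked protein-coding genes and 56.3% over all protein-coding windows. Windows of 1 gene share sequence, and the part of GC content in the GC box counts was not tested.

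Counted by window, ETS matches (CCGGAAG) were in 10 of 42 windows of marked members (23.8%) and 62 of 171 of the others (36.3%). Windows of protein-coding genes went the opposite way, with 14.6% of marked and 11.6% of all windows. The share of all windows of any gene was 8.86%. The 42 windows came from 30 genes, 6 of them from Eif5a alone, so they do not settle a difference between genes. By group, marked and unmarked windows had 21.1% and 39.5% for initiation factors and 11.1% and 36.1% for cytosolic ribosomal proteins. Mitochondrial ones showed no drop, with 35.7% and 34.4%. YY1 matches (AAGATGGCG) were in 0 of 42 and 16 of 171 windows. Their share was 3.0% in marked protein-coding windows, 1.83% in all protein-coding windows and 1.4% in all windows. The NRF1 element (GCGCATGC), bound by a regulator of nuclear genes for mitochondria, was in 3 of 42 windows of marked members, all of mitochondrial ribosomal protein genes (Mrpl17, Mrpl39 and Mrps18b, there outside the stretch printed above). That share, 7.14%, was near the 6.43% of unmarked members (11 of 171) and the 5.82% of marked protein-coding windows, beside 2.71% of all windows. CCAAT boxes were in 40.5% of marked members' windows, 31.6% of unmarked members', 41.1% of marked protein-coding windows and 37.4% of all windows. E-boxes (CACGTG) were in 14.3%, 12.3%, 11.2% and 7.15% of these, and TATA boxes (TATAAA) in 2.38%, 9.36%, 5.0% and 13.6%. The marked members were thus near the marked protein-coding genes for all 3 elements. The remaining elements, CRE (TGACGTCA), AP-1, ZNF143 (ACTACAA) and ATF4 sites (TGATGCAAT), were in at most 2 of the 42. A terminal oligopyrimidine start (5' TOP), the element through which mTOR controls ribosomal protein mRNAs, was read as a C and 4 pyrimidines within 10 bases of the annotated start. It was in 44 of 81 windows of cytosolic ribosomal protein genes (54.3%), in 3 of the 9 of these with a peak, and in 30.7% of all windows.

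**Figure D4:**
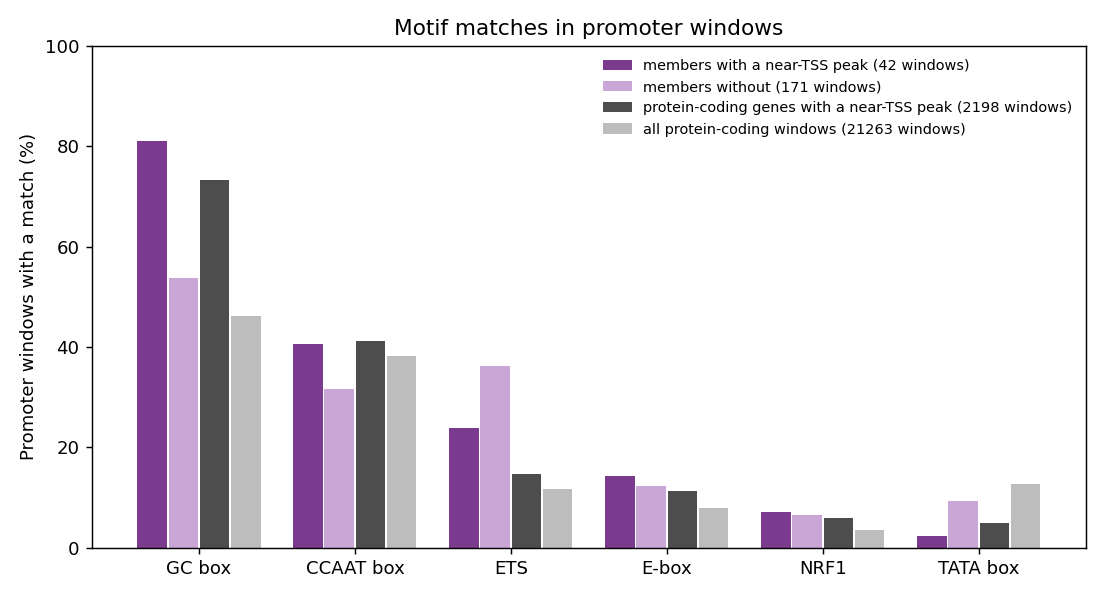
Bars give the percentage of promoter windows with at least 1 match to each element, for members with and without a peak near a TSS and for protein-coding genes with such a peak and overall. GC boxes rise from 53.8% to 81.0% between unmarked and marked members and from 46.2% in all to 73.3% in marked protein-coding genes, while ETS matches are higher in members than in the other genes.

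Genes of the eIF4 group gave 6 of the 13 initiation factor peaks in control. Of 13 eIF4 genes 6 were marked in control (46.2%, 19.2 to 74.9) and 1 in COH (7.69%, 0.195 to 36). In control, 2 of 5 eIF1 and eIF1A genes and 2 of 5 genes of the eIF5 and eIF6 group were marked (interval 5.27 to 85.3% for each). The shares of all protein-coding genes, 10.8% in control and 5.38% in COH, lie inside these intervals, apart from that of the eIF4 genes in control. That exception is a description and no test. Only 4 of the 6 peaks were within 1000 bp of a TSS, and the intervals give no order among these groups. The 6 genes were Eif4e, which binds the cap, the scaffold Eif4g1 and its relative Eif4g2, which lacks the site for eIF4E, the RNA helicases Eif4a1 and Eif4a2, and Eif4b, which stimulates the helicase. None of the 4 genes that restrain or relocate eIF4E (Eif4ebp1, Eif4ebp2, Eif4ebp3 and Eif4enif1) had a peak in either list. With 4 genes the interval reaches 60.2% in each list, so the shares of all protein-coding genes lie inside it.

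The cap-binding factor itself had a weak peak in control. Eif4e carried it in an intron, with its edge at 1141 bp from the TSS, and had a fold of 4.72 at a pileup of 14. Eif4g1 had the lowest fold of all initiation factor peaks, 3.67, with a pileup of 13, at 4532 bp from the TSS in a 5' UTR. Both lie inside the gene, away from the annotated start. The promoter peaks of Eif4a1 and Eif4b had the same fold, 4.52, at pileups of 24 and 16. The Eif4a2 peak, in an exon at 508 bp, had a pileup of 20 and a fold of 5.21. The nearest COH peaks to these 5 lay between 86.0 kb (Eif4a1) and 1413 kb (Eif4a2) away.

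Eif4g2 was the member of this group in both lists. In control its promoter peak, chromosome 7 from 110681957 to 110682527 as the lists count, reached a pileup of 16 and a fold of 5.10. The COH peak inside it, 110682125 to 110682440, had a pileup of 14 and a fold of 4.95. The peaks thus shared 316 bp, and their values were close.

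Of 5 eIF1 and eIF1A genes, 2 had a peak in control and 1 in COH, beside 10.8% and 5.38% of all protein-coding genes. Eif1, which keeps scanning ribosomes from stopping at wrong codons, had promoter peaks at 100210549 to 100211139 on chromosome 11 in control and 100210643 to 100211137 in COH. From control to COH the pileup went from 26 to 14 and the fold from 5.41 to 4.39. Eif1ax, its partner in scanning, had the highest fold of the initiation factors in control, 6.49 at a pileup of 14, on chromosome X, and no COH peak within 2340 kb. Eif1a, Eif1ad and Eif1b had no peak in either list.

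Eif5, which triggers GTP hydrolysis by eIF2 at the start codon, had a peak in each list at different places. The control peak lay in the 5' UTR at 361 bp from the TSS, with its summit at 544 bp, a pileup of 25 and a fold of 5.92. The COH peak covered the TSS, with its summit at 53 bp, a pileup of 17 and a fold of 5.72. The 2 peaks did not overlap and were 188 bp apart. A count of shared genes takes them as shared, and a count of overlapping sites does not.

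Eif5a, a factor that carries the modified residue hypusine and also aids elongation and termination, had overlapping 5' UTR peaks at 330 bp from the TSS in both lists. The control peak at 69812046 to 69812454 on chromosome 11 had a pileup of 22 and a fold of 4.94, and the COH peak at 69811983 to 69812454 had 18 and 5.17. It was the sole gene of the 6 in both lists with a higher fold in COH. Eif5a2, Eif5b and Eif6 had no peak.

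Each gene with an Eif2 symbol and a peak had it in 1 list only, while Ppp1r15b, which also acts on eIF2, was in both (below). Eif2a, an alternative carrier of initiator tRNA that is not the alpha subunit of eIF2, had a control promoter peak of fold 5.98 and pileup 14. Eif2b4, a subunit of the exchange factor that recharges eIF2, had one of fold 4.53 and pileup 20. Of the 4 kinases that phosphorylate eIF2 under stress, Eif2ak4 (GCN2, which senses lack of amino acids) had a control promoter peak of fold 5.81 and pileup 14. Eif2ak3 (PERK, which senses stress of the endoplasmic reticulum) had a COH promoter peak of pileup 10 and fold 4.16, the lowest fold of the initiation factor peaks in COH. Eif2ak1, Eif2ak2 and the eIF2 subunit genes had none.

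Peaks at genes of the eIF3 complex, a scaffold on the small subunit, were few. Of its 14 genes 0 were marked in control (upper bound of the interval 23.2%) and 2 in COH (14.3%, 1.78 to 42.8). The intervals overlap, and the shares of all protein-coding genes, 10.8% in control and 5.38% in COH, lie inside them. Eif3j1, a loosely held subunit, had a promoter peak at 121858845 to 121859205 on chromosome 2, of pileup 13 and fold 6.48, the highest of the initiation factors in COH. Eif3d, which can bind the cap in place of eIF4E, had one of pileup 12 and fold 4.31. The nearest control peak to Eif3j1 lay 72.0 kb away and that to Eif3d 1311 kb away.

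Among cytosolic ribosomal proteins, Rps23 held the strongest peak of all members in both lists by fold. Rps23 encodes a protein next to the decoding centre of the small subunit. Its control peak at 91070978 to 91071334 on chromosome 13 reached a fold of 8.93 at a pileup of 26, with a q of 16.1 on the -log10 scale and rank 24 of 1897 peaks near a TSS. The COH peak at 91070919 to 91071285 reached 8.31 at a pileup of 21, with 12.5 on that scale and rank 35 of 874. The peaks shared 308 bp, and their summits were 36 bp apart.

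Rpl21, of the large subunit, was the other cytosolic ribosomal protein gene in both lists. Its overlapping peaks on chromosome 5 had folds of 7.20 in control and 5.52 in COH, at pileups of 23 and 14. Rpl13 was in COH alone, with a 5' UTR peak, a pileup of 13 and a fold of 5.50.

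The other 5 were in control alone and spanned a wide range of strength. Rps13 had a promoter peak of pileup 18 and fold 6.06, and Rpl23 a 5' UTR peak of 15 and 5.27. Rpl37 had a fold of 4.11, Rps15a 4.08 and Rps19, a gene mutated in Diamond-Blackfan anaemia, 3.51, with pileups of 16, 14 and 17. Rps19 ranked 3001 of 3078 control peaks by fold. By subunit, 3 of 54 large subunit genes (5.56%, 1.16 to 15.4) and 4 of 35 small subunit genes (11.4%, 3.2 to 26.7) had a control peak. The 35 include Rps19bp1 and Rps23rg1, taken in by name, which had no peak in either list. The 10.8% of all protein-coding genes lies inside both intervals.

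By assigned name, 12 mitochondrial ribosomal protein genes were marked in control and 1 in COH, or 3 in COH with peaks at divergent neighbours counted. For the small subunit, 7 of 29 genes (24.1%, 10.3 to 43.5) were marked in control and 1 (3.45%, 0.0873 to 17.8) in COH, and for the large subunit 5 of 49 (10.2%, 3.40 to 22.2) and 0 (upper bound 7.25%). The shares over all protein-coding genes, 10.8% in control and 5.38% in COH, lie inside the intervals of both subunits. No gene of this group was named in both lists (0 of 78). Over all protein-coding genes 772 of 21900 were, which is 32.7% of those with a control peak and 65.5% of those with a COH peak.

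Mrps18b had the peak of highest pileup among all members. It lay at 36227271 to 36227664 on chromosome 17, upstream of the TSS with its summit at -295 bp, and reached a fold of 7.43 at a pileup of 44, with a q of 21.9 on the -log10 scale. A COH peak at 36227320 to 36227670, of pileup 23 and fold 6.10, overlapped it by 345 bp but was assigned to Ppp1r10, a nuclear regulator of protein phosphatase 1 that is transcribed away from the same region. The site was therefore present in both lists under different gene names.

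Pairs of divergent genes were counted in each group, and not over all genes. Of 69 mitochondrial ribosomal protein genes with a promoter window, 24 had a neighbour on the other strand starting within 1000 bp, against 9 of 69 cytosolic ones and 6 of 44 initiation factors. Counting peaks near the neighbour's start adds Mrps18b and Mrpl2 (beside Klc4) in COH, Mrpl47 (beside Ndufb5) in control and, for initiation factors, Eif2s1 (beside Atp6v1d) in control. The mitochondrial count would then be 13 in control and 3 in COH.

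The other small subunit genes with a control peak were Mrps14, Mrps16, Mrps23, Mrps26, Mrps28 and Mrps36. Of these Mrps28 had the highest fold, 5.80 with a pileup of 20 at its promoter, and Mrps16 the lowest, 4.31 with 14. Mrps36, whose product is now known to act in the 2-oxoglutarate dehydrogenase complex, had a 5' UTR peak with a fold of 5.53 and a pileup of 15, 13.1 kb from the nearest COH peak, assigned to Cdk7. Mrps14 and Mrps26 had promoter peaks with folds of 4.63 and 4.34, and Mrps23 the distal one with 4.72. In COH Mrps35 stood alone, with a promoter peak at a pileup of 9 and a fold of 4.6, and the nearest control peak lay 48.2 kb away.

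The large subunit genes were Mrpl14, Mrpl17, Mrpl39, Mrpl41 and Mrpl48, all in control. Mrpl17 had the highest fold, 5.48 with a pileup of 19, and Mrpl14 the lowest, 3.76 with 16. Mrpl39 and Mrpl48 had folds of 5.22 and 5.21 and Mrpl41 4.68. Each lay within 1000 bp of its TSS, 4 in promoters and that of Mrpl39 in a 5' UTR.

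Fewer member peaks overlapped between the lists than peaks near a TSS at large, within wide intervals. Of the control members near a TSS, 6 of 29 (20.7%, 7.99 to 39.7) overlapped a COH peak, beside 31.2% of all control peaks near a TSS and 34.3% of all control peaks. Of the COH members 5 of 11 (45.5%, 16.7 to 76.6) overlapped a control peak, beside 67.4% of COH peaks near a TSS and 61.8% of all. The shares over all peaks lay inside the members' intervals. By group, 3 of 11 initiation factor, 2 of 7 cytosolic and 1 of 11 mitochondrial control peaks near a TSS overlapped a COH peak.

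The 6 genes in both lists were Eif1, Eif4g2, Eif5, Eif5a, Rpl21 and Rps23. They made up 18.8% of the members in control and 54.5% of those in COH, beside 32.7% and 65.5% for all protein-coding genes. The pileup was lower in COH for 6 of 6, by 2 at Eif4g2 to 12 at Eif1, as given above. Of 592 control peaks near a TSS with an overlapping COH peak, the COH pileup was lower for 442 (74.7%). That set is of overlapping peaks, while the 6 are genes matched by name. The Eif5 peaks do not overlap, and the Mrps18b site, shared under different gene names, is not among the 6. Pileups were not scaled to depth in any stated way, so a lower pileup is not shown to be less binding.

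Other genes of protein synthesis, in lists written with earlier results of these data known, are set here against the shares of all protein-coding genes, 10.8% in control and 5.38% in COH. Since the lists were written so, an interval above these shares is a description and no test. Of all protein-coding genes with a COH peak, 65.5% also had one in control. Partners of initiation outside the name pattern had 7 of 21 genes in control (33.3%, 14.6 to 57.0) and 5 in COH (23.8%, 8.22 to 47.2), and both intervals lie above those shares. All 5 COH genes were also in control. In COH, 2 of the 5 had a -log10 q of at least 5, beside 60.8% of all COH peaks. Pabpc1, the poly(A)-binding protein that joins the mRNA's ends, had a fold of 7.74 in control and 3.68 in COH, with pileups of 32 and 13. Gigyf2, a partner of the eIF4E relative 4EHP, had 6.07 and 5.24. Ppp1r15b, which directs dephosphorylation of eIF2, had 5.74 and 5.33, and Paip1, which binds Pabpc1, had 4.76 and 4.17.

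Genes of the mTOR pathway, which controls eIF4E and the translation of ribosomal protein mRNAs, had 9 of 30 in control (30.0%, 14.7 to 49.4) and 6 in COH (20%, 7.71 to 38.6), 5 of them in both. Both intervals lie above the shares of all protein-coding genes, a description and no test, as this list too was written with results known. Within 1000 bp of a TSS, 8 and 5 genes remained, beside 8.37% and 3.8% of all protein-coding genes. Of the 6 in COH, 3 had a -log10 q of at least 5, beside 60.8% of all COH peaks. Akt2 had overlapping promoter peaks with folds of 7.67 and 7.03 in control and COH. Ddit4 and Sesn3, stress-induced inhibitors of mTOR complex 1, had folds of 3.68 and 5.90 and of 5.90 and 5.02.

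Elongation and termination genes had 6 of 24 in control (25.0%, 9.77 to 46.7) and 3 in COH (12.5%, 2.66 to 32.4), and the shares of all protein-coding genes, 10.8% and 5.38%, lie inside both intervals. Eef1a1, which brings tRNAs to the ribosome, had overlapping peaks inside the gene with folds of 5.12 and 6.71, and the release factor Etf1 had 3.75 and 5.02. Gspt1, the partner of Etf1, had 5.44 in control, and the mitochondrial release factor Mtrf1l 6.43 in COH.

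Ribosome biogenesis genes had shares nearer to those of all protein-coding genes, 7 of 55 in control (12.7%, 5.27 to 24.5) and 5 in COH (9.09%, 3.02 to 20). The nucleolar genes Gnl3, Ncl and Rcl1 had overlapping promoter peaks, with folds of 4.82, 4.44 and 5.24 in control and 6.74, 5.35 and 5.74 in COH, and Heatr1 had 6.62 in control.

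Genes of tRNA synthetases, which charge tRNAs with amino acids, had the lowest control share of these lists, 1 of 39 (2.56%, 0.0649 to 13.5). In COH 3 of 39 had a peak (7.69%, 1.62 to 20.9). The shares of all protein-coding genes, 10.8% and 5.38%, lie inside these intervals. With 0 in both lists, beside 65.5% of all protein-coding genes with a COH peak, the counts are too small to compare. They were Yars2 in control (fold 5.78) and Farsb (6.83), Nars2 (6.68) and Eprs (4.76) in COH.

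Peaks with ribosomal pseudogene names, left out by the choice of names, were of another kind. They numbered 19 in control and 16 in COH, and 0 of them lay within 1000 bp of a TSS in either list. Rpl31-ps7 alone took 10 and 8. The Rps6k kinases had 5 and 4 peaks.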

How the data were processed

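CUT&Tag libraries were amplified with 15 cycles, per the labels; the submitters' processing notes name cutadapt 1.9.1, Bowtie2 and mm9, with no role or order. The sources used here do not give the peak caller or its background. The pileup signal, the fold (a ratio) and the 2 -log10 columns (p, then q) were deposited by the authors, 1 table per library; the headings of the -log10 columns were damaged, so both were identified by place and values. Positions, annotation, gene names and distances (other values) are the authors', per the file headers. The build is not settled: gene starts lay within 100 bp of GRCm38.p6 for 81 of 2766 genes.

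Members and gene lists were chosen with earlier results of these data known. Names were matched to a RefSeq table; all 37 members matched. Overlap means at least 1 bp. Shares have exact Clopper-Pearson 95% intervals (scipy 1.17.1), which treat genes, or peaks, as independent draws and cover that counting error only. They do not cover error in read counts, and PCR reads are not independent molecules. With 1 library per group no test between conditions was made, and depth is unknown. Every member with a peak is named, and up to 4 genes per other list: those in both lists first, then near a TSS, then by fold. The values of 1 gene that this rule names are not reported here. Eif3j1 was added to the printed stretches, and the 5' TOP reading and the pileup comparison were chosen, after values had been seen. Alternatives were fold above the median, a -log10 q of at least 5, lists of equal length, distance limits of 1000 and 3000 bp, clustered peaks (at least 5 within 100 kb) left out, a reciprocal overlap of 50% and peaks within 1000 bp; divergent neighbours and the same assigned gene were chosen later, after seeing the data. The overlap step, tested on simulated lists, recovered 500 of 500 planted pairs.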

Additional observations from a re-analysis of the deposited data

How the results depend on the processing

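Of 83 alternative counts, 64 stayed within 1.5 times the reported one and 19 did not. Keeping peaks above the median fold left 5 initiation factor, 4 cytosolic and 4 mitochondrial ribosomal protein genes in control and 2 and 0 initiation factor and mitochondrial genes in COH. A -log10 q of at least 5 left 4 cytosolic and 7 mitochondrial genes in control and 3 initiation factor and 0 mitochondrial genes in COH, with 1 overlapping initiation factor peak in COH. It also left 3 ribosome biogenesis genes in control and, in COH, 2 initiation partner, 3 mTOR pathway and 3 ribosome biogenesis genes. Over the whole lists, 63.2% of control peaks and 60.8% of COH peaks reached that q. Cutting the control list to the 1711 peaks of highest fold left 7, 4 and 6 genes. The share of all protein-coding genes in that cut list was not computed. With divergent neighbours counted, the mitochondrial count in COH was 3, and with the same assigned gene required, 0 mitochondrial control peaks overlapped. These alternatives keep fewer peaks or change the gene name by their construction. The distance limits, removal of clustered peaks and both other overlap rules moved no count by over 1.5 times. No paired analysis was possible because each group has 1 library and no result comes from a test between them.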
